A study of Mus musculus with 10 samples.

Results

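The nuclei described here are putative layer 6 neurons of mouse cortex, 192 of 5966 cortical nuclei and of 11624 nuclei in all. They were selected on their own counts. A cortical nucleus was a member if it held at least 2 UMIs (unique molecular identifiers, the count of distinct captured transcripts) from at least 2 different genes of Syt6, Ighm, Rprm, Foxp2, Col12a1, Hs3st4 and Col5a1, called gate genes here. It also had to hold no UMI of Gad1 or Gad2, which make GABA in inhibitory neurons, and none of Otof, Scube1, Scn7a, Oprk1 or Rxfp1, which mark other excitatory nuclei in these data. None of these 14 genes is used as a finding. The nuclei came from DroNc-seq, in which single nuclei and barcoded beads meet in droplets, of archived frozen brain of C57BL/6 mice, with no treatment or genotype named. The labels' protocols name prefrontal cortex as the piece dissected, and the 5 cortical libraries carry the title numbers 0 (libraries a and b, summed here), 1, 2 and 3. The series names 4 mice and 2 brain regions, and which mouse a title number stands for is not stated. Each p-value below therefore measures the spread between title numbers, which may be technical. It rests on all 4 numbers, or on 3 where number 2 was left out, and on an estimate of spread pooled over genes. Age and sex are not given in the sources used here. The 5 libraries held 1807068 to 2600788 UMIs each, and the members 364299 in all.

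Layer 6 is the deepest layer of the cortical sheet. Many of its excitatory neurons are corticothalamic: they send axons to the thalamus, the relay that supplies the cortex with sensory input, and feed back on it. Syt6 encodes a synaptotagmin and Foxp2 a forkhead transcription factor, and both are used as markers of these cells. Other layer 6 neurons project within the cortex, and a thin sheet of layer 6b neurons lies below them with markers of its own, such as Ctgf and Cplx3.

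By title number 0, 1, 2 and 3 there were 60, 53, 31 and 48 members, or 4.38%, 3.26%, 2.25% and 3.02% of cortical nuclei. The mean was 3.23% ± 0.882 (SD, n = 4). The exact binomial 95% interval of number 0, 3.36% to 5.60%, lay above that of number 2, 1.53% to 3.18%, and these intervals cover counting error only. Number 0 was also sequenced more deeply per nucleus: its members had a median of 2486 UMIs against 1148, 1290 and 1190 in numbers 1, 2 and 3. Other cortical nuclei had medians of 2515.5, 1105, 1308 and 1140, so members and the rest were of like depth within a number. When every nucleus was thinned to 500 UMIs before the rule was applied, the shares were 0.657%, 0.985%, 0.435% and 1.20%. Number 0 was then no longer the highest, and the mean was 0.819% ± 0.339 (SD, n = 4). No member barcode occurred in a second library, and 6 cortical barcodes did. Of the 301 cortical nuclei with the highest 5% of doublet scores per library, 9 were members.

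**Figure D1:**
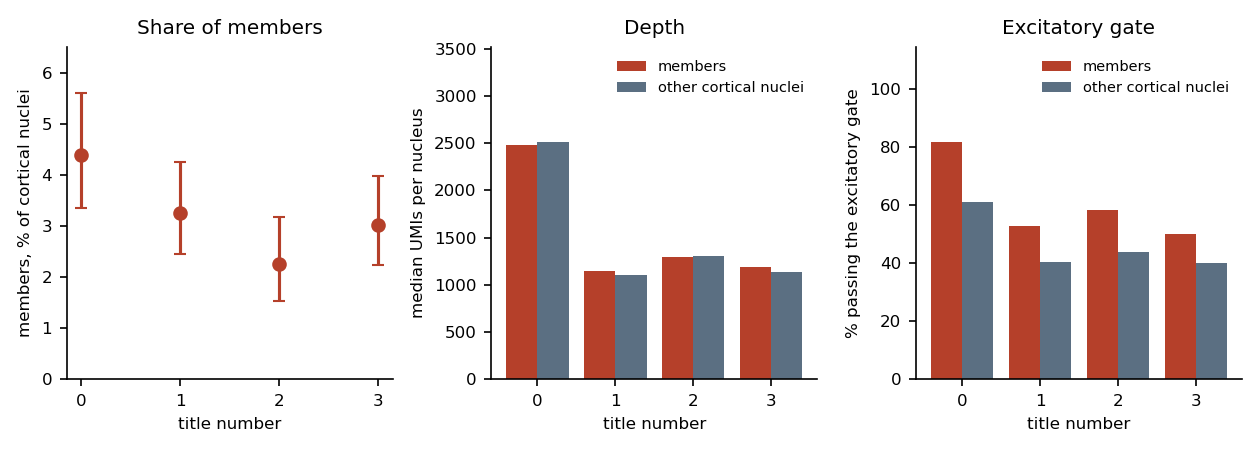
Left, the share of members among cortical nuclei by title number with exact 95% binomial intervals; middle, the median UMIs per nucleus of members and other cortical nuclei; right, the percent of each that passed a gate of 5 excitatory marker genes. Number 0 is highest in all 3 panels, with 4.38% members, medians of 2486 and 2515.5 UMIs and 81.7% of members passing the gate.

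The rule rests on few molecules per nucleus. Exactly 2 gate genes were seen in 128 members, 3 in 50 and 4 or more in 14, with at most 6, and 88 members held exactly 2 gate UMIs. Each gate gene was seen in a minority of members, from Foxp2 in 28.1% to Col12a1 in 39.6%, and in 1.78% to 4.64% of other cortical nuclei. Rprm, a p53 target used as a layer 6 marker, was seen in 38.0% of members, Syt6 in 37.0%, Hs3st4, a heparan sulfate sulfotransferase, in 34.4%, Ighm in 33.9% and Col5a1 in 30.7%. The pairs seen most often were Syt6 with Col12a1 and Col12a1 with Hs3st4, each in 24 members. Just outside the rule stood 454 nuclei with 1 gate gene and no excluded gene, 50 of them with 2 or more UMIs of it. Another 135 nuclei held at least 2 gate genes and an excluded gene, of Gad1 or Gad2 in 57 and of the excluded excitatory genes in 109. These values chose the members and are given as a description.

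In members, 12 of 26 tested corticothalamic and deep layer genes were higher and 8 of 22 upper layer genes were lower, while the remaining genes of both lists did not pass. Counts were summed over the members and over all other cortical nuclei of each title number. The 2 sums were compared within title numbers with edgeR (quasi-likelihood F tests), p-values were adjusted over 11054 genes by Benjamini and Hochberg's method, and the threshold was 0.05. Of these genes 249 (2.25%) passed, 105 (0.95%) higher and 144 (1.3%) lower in members. A sum over nuclei cannot tell a gene detected in fewer members from one at a lower level per nucleus. CPM below means counts scaled to 1e6 per sum after TMM normalization unless said otherwise, and folds are members minus other nuclei on the log2 scale. The call counts depended on the method. Without the title number as a block 59 genes passed, DESeq2 called 69, and limma-voom with a weight per group called 0, with 1253 genes at an unadjusted p under 0.05 and a smallest adjusted p of 0.052. Left out in turn, title numbers 0, 1, 2 and 3 gave 88, 118, 230 and 144 calls, so numbers 0, 1 and 3 each moved the count by over 1.5 times. All 249 genes kept their direction in each of these 7 settings, and the cause of the difference in counts was not tested.

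Of 28 genes in the corticothalamic and deep layer list, 26 were tested, 12 passed as higher and 0 as lower, against 0.95% of all genes called higher. The median log2 fold of the 26 was 1.14, against -0.08 for all genes tested. Members and this list were chosen with earlier results of these data known. The rule also excluded inhibitory and other excitatory nuclei, so this direction may be partly set by the choice of members. The same limit holds for the comparison among excitatory nuclei below. Tle4, a transcriptional corepressor that marks layer 6 corticothalamic neurons, was measured in members at 186, 97.7, 102 and 157 CPM in numbers 0 to 3 and in other nuclei at 41.8, 40.2, 37.3 and 32.4 CPM. Every member value lay above every other value (log2 fold 1.90, SE 0.29, adjusted p = 8.5e-08). Tbr1, a T-box transcription factor of deep layer neurons, was at 169, 83.7, 153 and 173 CPM against 48.7, 48.6, 50.9 and 56.9 CPM, again without overlap (log2 fold 1.54, SE 0.28, adjusted p = 1.1e-05). Bcl11b, also known as Ctip2, a zinc finger factor of deep layer projection neurons, averaged 152 ± 20.1 CPM (SD, n = 4) in members and 66.6 ± 7.10 CPM (SD, n = 4) elsewhere (log2 fold 1.26, SE 0.26, adjusted p = 2.6e-04). Its groups did not overlap. Fezf2, the zinc finger factor that directs neurons to subcortical targets, was at 146, 112, 136 and 47.1 CPM against 51.6, 69.2, 58.8 and 46.4 CPM (log2 fold 1.08, SE 0.29, adjusted p = 0.016). The member value of number 3 fell within the range of the other nuclei, and the other 3 lay above it. Zfpm2, a cofactor of GATA factors, was at 40.8, 0, 68.1 and 78.6 CPM against 7.92 to 11.4 CPM (log2 fold 2.25, SE 0.56, adjusted p = 0.0065), so that number 1 had none of the 16 member UMIs.

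Among the list's effectors rather than its transcription factors, Garnl3, which carries a Rap GTPase-activating domain, had the smallest p of all 11054 genes. Its member values were 1107, 502, 647 and 503 CPM and the others 339.9, 278, 243 and 261 CPM (log2 fold 1.32, SE 0.14, adjusted p = 3.6e-18). Number 0 was the highest on both sides, and without it the log2 fold was 1.09, with an adjusted p of 2.96e-06. Pcp4, a small calmodulin-binding protein, was at 297, 349, 221 and 157 CPM against 68.7, 89.2, 98.2 and 89.3 CPM (log2 fold 1.69, SE 0.21, adjusted p = 1.4e-12). Crym, a thyroid hormone-binding protein, was at 157, 97.7, 221 and 157 CPM against 43.2, 74.5, 68.8 and 65.6 CPM (log2 fold 1.42, SE 0.26, adjusted p = 2.9e-05). Neither gene's groups overlapped. Nxph3, a secreted ligand of neurexins, was the gene with the largest fold among those named as higher: 29.1, 55.8, 68.1 and 94.3 CPM against 4.56, 8.03, 5.26 and 7.88 CPM, from 19 member UMIs (log2 fold 3.14, SE 0.57, adjusted p = 1.3e-05). Thsd7b was at 46.6, 27.9, 51.1 and 78.6 CPM against 8.88, 4.46, 5.70 and 3.94 CPM from 18 UMIs (log2 fold 2.94, SE 0.58, adjusted p = 1.1e-04). Sla, a Src-like adaptor, had 9 UMIs, 17.5, 14.0, 17.0 and 62.8 CPM against 2.63 to 5.70 CPM (log2 fold 2.87, SE 0.81, adjusted p = 0.024), and the kainate receptor subunit Grik3 averaged 94.2 ± 44.4 CPM (SD, n = 4) against 46.1 ± 4.48 CPM (SD, n = 4), higher in 3 of 4 numbers (log2 fold 1.07, SE 0.33, adjusted p = 0.048). In the GENCODE vM21 annotation of mm10 the genes with the smallest p in this list are protein-coding: Garnl3 (chromosome 2, 32986224 to 33131654, minus strand), Pcp4 (chromosome 16, 96467606 to 96525793, plus strand), Tle4 (chromosome 19, 14448150 to 14598051, minus strand) and Tbr1 (chromosome 2, 61802930 to 61814114, plus strand).

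**Figure D2:**
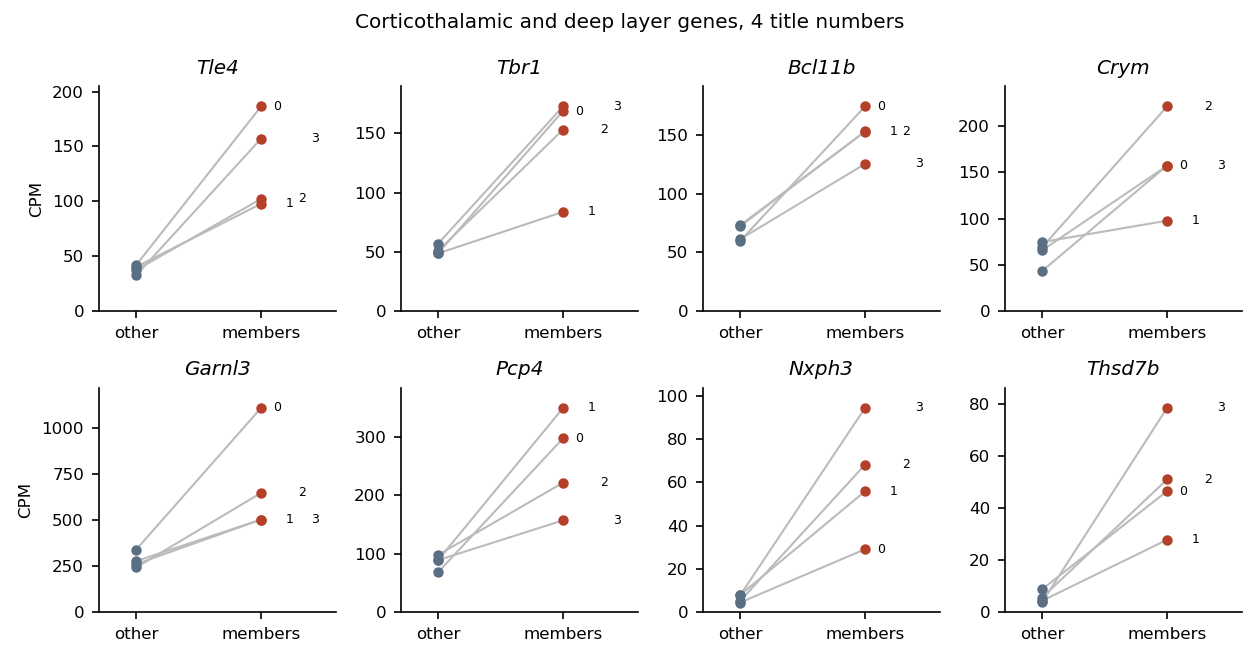
CPM (from summed, TMM-scaled counts) of 8 corticothalamic and deep layer genes in other cortical nuclei and in members, with 1 line and 1 digit per title number. In each of the 8 panels all 4 member values lie above all 4 values of the other nuclei, and Garnl3 reaches 1107 CPM in number 0. The panels were picked from genes that passed, so the lack of overlap is partly set by that choice. The list's other called genes, Fezf2, Zfpm2, Grik3 and Sla, are not shown, and the first 3 of these overlap between groups.

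These 12 genes kept a positive fold in all 4 sets that left out a title number. The number that passed was 6 without number 0, 10 without 1, 10 without 2 and 9 without 3. Tle4, Tbr1, Nxph3, Thsd7b, Pcp4 and Garnl3 passed in all 4. Fezf2, Zfpm2, Bcl11b, Crym, Grik3 and Sla lost their call without number 0, with log2 folds of 0.76, 2.21, 1.08, 1.17, 1.09 and 2.98. Grik3 and Sla also lost it without number 1 (0.86 and 3.04), Fezf2 and Zfpm2 without number 2 (1.04 and 2.10), and Zfpm2, Grik3 and Sla without number 3 (2.07, 0.99 and 2.23). DESeq2 called 6 of the 12: Tle4, Tbr1, Bcl11b, Crym, Pcp4 and Garnl3.

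The 14 tested genes of the list that did not pass ranged widely. Of all 26 tested, 22 had a log2 fold above 0 and 4 below 0. The tested genes described next were higher on average in members. Sox5, a deep layer transcription factor, was at 181, 83.7, 170.3 and 78.6 CPM in members and 98.9, 85.2, 77.2 and 81.4 CPM elsewhere, higher in 2 of 4 numbers (adjusted p = 0.24, edgeR). The nuclear factors Nfia and Nfib averaged 109 ± 29.3 CPM (SD, n = 4) and 379 ± 78.1 CPM (SD, n = 4) in members against 68.0 ± 10.4 CPM (SD, n = 4) and 289 ± 32.4 CPM (SD, n = 4) (edgeR adjusted p = 0.1 and 0.12). Kcnk2, a K2P potassium channel, was above every other value in all 4 numbers, 40.8 to 102 CPM against 27.4 to 37.5 CPM, without passing (adjusted p = 0.19, edgeR). Ppp1r1b, the dopamine-regulated phosphatase inhibitor DARPP-32, was at 81.6, 83.7, 68.1 and 31.4 CPM against 34.8, 34.8, 33.3 and 26.3 CPM, higher in 4 of 4 (adjusted p = 0.13, edgeR). Of Ntsr1, the neurotensin receptor whose Cre line is used to target layer 6 corticothalamic neurons, members held 4 UMIs and other nuclei 55, and of Corin 0 and 4: both missed the count filter and were not tested.

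Levels of genes that the rule did not use were also compared over the number of gate genes a nucleus showed. CPM here are plain shares of summed UMIs with exact Poisson 95% intervals that cover counting error only, over 2808 nuclei with no gate gene and no excluded gene, 454 with 1, 128 members with 2 and 64 members with 3 or more. Tle4 was at 33.9 (28.5 to 40.1), then 60.9 (45.4 to 80.1), then 116 (75.9 to 170.3), then 206 (138 to 296) CPM. Garnl3 was at 228 (214 to 243), then 418 (375 to 464), then 684 (579.9 to 801), then 1017 (857 to 1198) CPM. Both thus stood higher at each step. Pcp4 was at 77.3 (69.0 to 86.4), then 128 (105 to 154), then 246 (185 to 320.1), then 313 (227 to 420.1) CPM. Tbr1, Crym, Bcl11b, Zfpm2 and Sla also stood higher at each step. From 1 gate gene on, the intervals of neighbouring classes overlap for Tle4, Tbr1, Crym, Bcl11b, Zfpm2 and Sla. Those of Garnl3 do not overlap at any step, and those of Pcp4 overlap only between 2 gate genes and 3 or more. Fezf2 went from 129.7 CPM in members with 2 gate genes to 107 with 3 or more, Thsd7b from 62.6 to 28.4 and Nxph3 from 53.6 to 49.8, with intervals that overlap in each case. Camk2n1, an inhibitor of the kinase CaMKII, ran the other way at 716 (690.1 to 743), then 566 (516 to 619.6), then 398 (319.5 to 489.6), then 164 (104 to 245) CPM. Slc17a7, the vesicular glutamate transporter of excitatory cortical neurons, was at 249 (234 to 265), then 252 (219 to 288), then 304 (236 to 385), then 270.2 (191 to 371) CPM, with intervals of all 4 that overlap. The nuclei with 1 gate gene thus held intermediate levels of Tle4, Garnl3, Pcp4 and Camk2n1, and they count among the other nuclei in the comparison. Median UMIs of the 4 classes were 1144.5, 1298, 1298.5 and 1952.5, so the nuclei with 3 or more gate genes were also the deepest. The classes pool title numbers, and number 0 gave 28 of these 64 nuclei, against 60 of all 192 members. Member levels of Tle4 and Garnl3 were highest in number 0. The parts of depth and of title number were not tested.

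**Figure D3:**
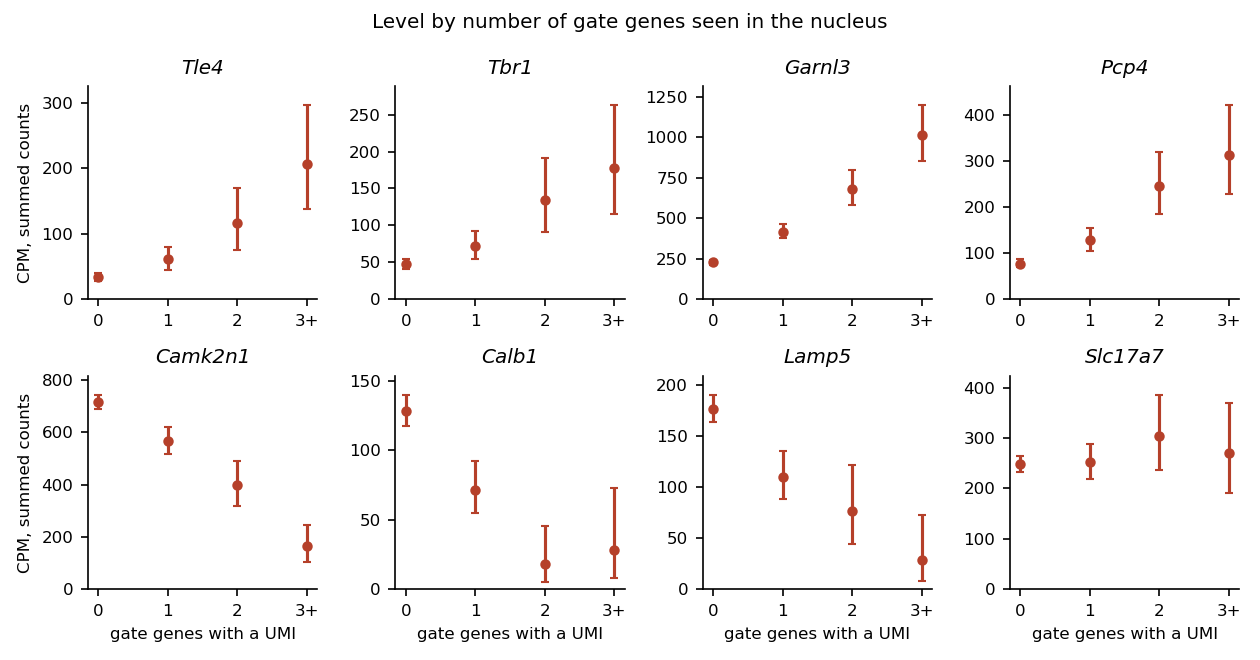
CPM of summed counts (plain totals) of 8 genes that the rule did not use, in cortical nuclei without an excluded gene, by the number of gate genes with a UMI; 2 and 3+ are the members, and bars are exact Poisson 95% intervals that cover counting error only. Tle4, Tbr1, Garnl3 and Pcp4 step up and Camk2n1 and Lamp5 step down from left to right. Title numbers are pooled. Neighbouring intervals of Tle4, Tbr1, Pcp4 and Lamp5 overlap in part, and those of Slc17a7 all overlap.

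No gene of the layer 6b list passed in either direction in edgeR or DESeq2. Of 13 genes 7 were tested, with 0 at an unadjusted p under 0.05 and a median log2 fold of 0.03. Ctgf, a secreted matrix protein that marks layer 6b, was at 23.3, 0, 85.1 and 31.4 CPM in members against 19.0 to 24.1 CPM, above and below the other nuclei by title number (adjusted p = 0.87, edgeR). Kcnmb4, an accessory subunit of calcium-activated potassium channels, was at 40.8, 14.0, 51.1 and 15.7 CPM against 25.4 to 37.9 CPM. Cplx3, a synaptic complexin, had 2 member UMIs, and Nxph4, Moxd1 and Tmem163 had 0, which allows a level of up to 8.23 CPM from 3 counts in 364299 member UMIs. The other nuclei held Moxd1 at 3.84 to 7.44 CPM and Nxph4 at 0 to 2.19 CPM, below that limit, so a lower level in members was not detectable at this depth. Of 14 tested layer 5 projection neuron genes 1 was higher, against 0.95% of all genes: Nefm, the medium neurofilament subunit, at 262, 502, 272 and 267 CPM against 162, 204, 208 and 199 CPM (log2 fold 0.76, SE 0.17, adjusted p = 0.0021). Of 9 tested genes of claustrum and layer 6 intratelencephalic neurons, 0 passed as higher and 2 as lower, against 1.3% of all genes called lower: Rgs12, a regulator of G-protein signalling (log2 fold -1.56, SE 0.44, adjusted p = 0.023), and C1ql3, a secreted synaptic organiser (log2 fold -1.26, SE 0.35, adjusted p = 0.022). Nefm lost its call without number 1 (0.53). Rgs12 and C1ql3 lost theirs without each number in turn, at log2 folds of -1.65 to -1.05 for C1ql3 and of -1.49 to -1.32 for Rgs12 without numbers 1, 2 and 3. Members outside number 0 held 1 UMI of Rgs12.

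Of 22 genes of intratelencephalic and upper layer neurons, all tested, 0 were higher and 8 lower in members, against 1.3% of all genes called lower. Their median log2 fold was -1.04, and 21 of 22 folds were below 0. The rule itself excluded Otof, Scube1 and Scn7a nuclei, so this direction is partly set by the choice of members. Calb1, the calcium buffer calbindin, was at 0, 14.0, 51.1 and 62.8 CPM in members and 78.0, 119.6, 139 and 131 CPM elsewhere, from 8 member UMIs (log2 fold -2.25, SE 0.42, adjusted p = 2.04e-05). Lamp5, a lysosome-associated membrane protein of upper layer neurons, was at 52.4, 69.8, 102 and 15.7 CPM against 155, 164, 169 and 149 CPM (log2 fold -1.46, SE 0.29, adjusted p = 1.5e-04). Rasgrf2, a Ras exchange factor of layers 2 and 3, was at 58.3, 69.8, 136 and 15.7 CPM against 222, 149, 151 and 149.7 CPM (log2 fold -1.45, SE 0.28, adjusted p = 5.7e-05). For each of these 3 genes the highest member value lay below the lowest other value. Cux2, a homeodomain factor of upper layers, was at 40.8, 27.9, 153 and 78.6 CPM against 152, 139.7, 157 and 137 CPM (log2 fold -1.20, SE 0.29, adjusted p = 0.0044): number 2 stood within the range of the other nuclei. Mef2c, an activity-regulated transcription factor, averaged 428 ± 72.6 CPM (SD, n = 4) against 633 ± 28.0 CPM (SD, n = 4) (log2 fold -0.56, SE 0.14, adjusted p = 0.0063). Stard8, Kitl (the ligand of Kit) and Enpp2 (autotaxin) also passed, with log2 folds of -2.07, -1.19 and -0.86. All 8 kept their direction with a title number left out, and the number that passed was 2 without 0 (Lamp5 and Calb1), 3 without 1 (those and Rasgrf2), 7 without 2 (Kitl lost) and 7 without 3 (Mef2c lost). Without number 0, Rasgrf2, Cux2, Mef2c, Kitl, Stard8 and Enpp2 had log2 folds of -1.03, -0.78, -0.59, -1.37, -1.50 and -0.72. DESeq2 called Lamp5 and Calb1 alone among the 8.

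**Figure D4:**
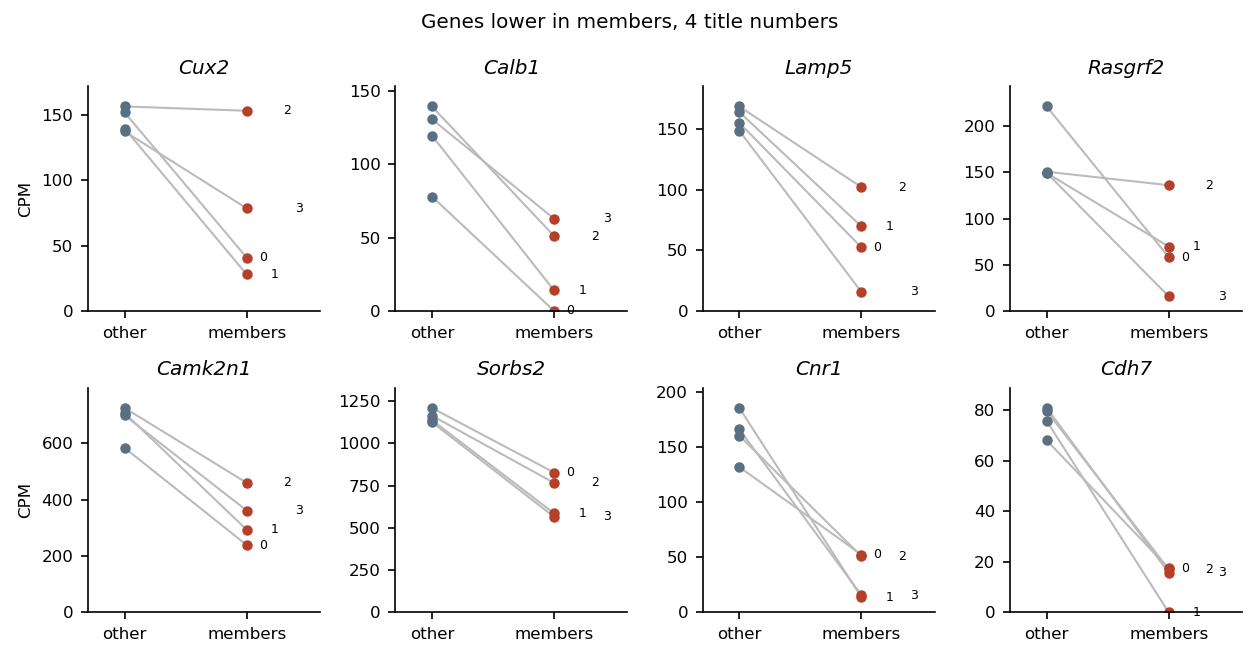
CPM (from summed, TMM-scaled counts) of 8 genes that were lower in members, in other cortical nuclei and in members, with 1 line and 1 digit per title number. Calb1, Lamp5, Rasgrf2, Camk2n1, Sorbs2, Cnr1 and Cdh7 do not overlap between the groups, and Cux2 does because of number 2. The genes shown were picked from those that passed, so the lack of overlap is partly set by that choice.

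The 10 genes with the smallest p, taken after their values were seen, all passed again with any 1 title number left out. They were Garnl3, Pcp4, Col6a1, Fut9, Hbb-bs, Rgs5, Camk2n1, Chgb, Lrrtm2 and Tle4, and DESeq2 called all but Rgs5. Fut9, a fucosyltransferase that makes Lewis X sugars, was at 618, 977, 936 and 1021 CPM in members and 411, 467, 417 and 481 CPM in other nuclei (log2 fold 0.95, SE 0.12, adjusted p = 1.9e-11). Chgb, the dense-core granule protein chromogranin B, was at 454, 712, 562 and 393 CPM against 188, 285, 280.2 and 296 CPM (log2 fold 1.06, SE 0.15, adjusted p = 6.1e-10). Lrrtm2, a postsynaptic partner of neurexins, was at 186, 405, 187 and 377 CPM against 90.0, 120.0, 129.8 and 123 CPM (log2 fold 1.29, SE 0.20, adjusted p = 7.5e-08). None of these 3 overlapped between groups. Col6a1, a chain of collagen VI, was at 431, 209, 324 and 424 CPM against 123, 159.7, 141 and 137 CPM (log2 fold 1.39, SE 0.17, adjusted p = 3.8e-12). The rule used 2 other collagens, Col12a1 and Col5a1, and when members had to pass on the remaining 5 gate genes the log2 fold of Col6a1 was 1.45 (adjusted p = 3.1e-06, edgeR, numbers 0, 1 and 3). On the lower side, Camk2n1 was at 239, 293, 459.7 and 361 CPM against 584, 707, 725 and 699 CPM (log2 fold -1.07, SE 0.15, adjusted p = 6.1e-10). Hbb-bs, a beta globin of red blood cells, was at 163, 41.9, 17.0 and 0 CPM against 379, 230.2, 253 and 182 CPM, and Rgs5, a pericyte gene, at 326, 0, 0 and 110.0 CPM against 471, 286, 459.6 and 346 CPM. Members thus held less of 2 transcripts that belong to blood and vessels.

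By size of fold, the largest increases among genes of at least 20 CPM that were higher in all 4 numbers were in Nxph3, Cpa6, Thsd7b, Sla, Olfml2b and Dpp4. Cpa6, a secreted carboxypeptidase, was at 52.4, 41.9, 17.0 and 15.7 CPM in members and 5.28, 3.12, 2.63 and 5.25 CPM elsewhere, and Olfml2b, an olfactomedin domain protein, at 35.0, 27.9, 34.1 and 62.8 CPM against 4.80, 4.02, 7.89 and 6.56 CPM. Dpp4, a cell-surface peptidase, was at 29.1, 41.9, 34.1 and 47.1 CPM against 9.36, 4.91, 7.02 and 5.69 CPM. Their log2 folds were 3.06 ± 0.67, 2.79 ± 0.64 and 2.29 ± 0.63 (SE), with edgeR adjusted p of 8.8e-04, 0.0021 and 0.02. Each rests on 13 or 14 member UMIs. The groups do not overlap, which is partly set by the choice of genes that passed and were higher in all 4 numbers. Cpa6, Olfml2b and Dpp4 lost their call without number 0 at log2 folds of 2.78, 2.77 and 2.82, and Dpp4 also without each other number in turn. Sla lost its call without numbers 0, 1 and 3, as given above. DESeq2 called none of the 6 and kept the direction of each.

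The largest decreases by the same rule were in genes with 0 or 1 UMI in members. Pglyrp1, a peptidoglycan recognition protein, Mrpl39, a mitochondrial ribosomal protein, and Crip1, a small LIM protein, had no UMI in members and 305, 273 and 266 in the rest. Against a floor of 3 counts over all members they were at least 3.31-, 2.96- and 2.88-fold lower. Fam19a1, a secreted protein also named Tafa1, had 1 UMI in members, in number 1, and 705 in the rest, and was lower by 22.9-fold, with a counting interval of 4.10 to 907. Reln, the secreted glycoprotein reelin, and Slc32a1, the vesicular GABA transporter, had 1 UMI each in members against 326 and 346. They were lower by 10.6-fold, with a counting interval of 1.89 to 420.1, and by 11.3-fold, with a counting interval of 2.01 to 446. Both belong to inhibitory neurons of the cortex, which the rule excluded through Gad1 and Gad2. Of the 6, Fam19a1 alone passed with every title number left out in turn. Pglyrp1 lost its call without number 0, Mrpl39 without 0, 1 and 3, Crip1 and Reln without each number in turn, and Slc32a1 without 0, 2 and 3, at edgeR adjusted p of up to 0.44. DESeq2 called none of the 6.

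With both sides restricted to excitatory nuclei, and title number 2 out of the fit, 7 of the 12 deep layer genes passed. A nucleus passed the excitatory gate if it held at least 2 UMIs from at least 2 of Slc17a7, Camk2a, Sv2b, Nrgn and Neurod2 and none of Gad1 or Gad2. By title number 49, 28, 18 and 24 members passed it, 119 in all, as did 2641 other cortical nuclei. That was 81.7%, 52.8%, 58.1% and 50.0% of members against 60.8%, 40.4%, 43.8% and 40.1% of the rest. Number 2, with 18 members, fell under the minimum of 20 nuclei and was not in this fit, so that its values below are plain CPM outside it. Of 9020 genes 101 (1.12%) passed in numbers 0, 1 and 3, 41 (0.455%) higher and 60 (0.665%) lower. Without the block 14 passed, DESeq2 called 4 and limma-voom with a weight per group 0, with 771 at an unadjusted p under 0.05. Leaving out numbers 0, 1 and 3 gave 12, 50 and 50 calls. With a minimum of 15 nuclei, which lets number 2 in, 96 genes passed, among them 78 of the 101, all 7 of the deep layer genes and all 12 of the genes named by fold as higher. That setting ended the calls of Tle1, Stard8, Cux2, Enpp2, Mef2c, Lrrtm2, Pcdh9 and Plxnd1, at log2 folds of -2.29, -2.16, -1.07, -0.66, -0.51, 0.83, 0.76 and -1.44. This comparison shares its members with the one above. Of its calls 39 of 41 higher and 51 of 60 lower were called there too, which is 37.1% and 35.4% of the calls there.

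Of 21 tested deep layer genes 7 were higher and 0 lower among excitatory nuclei, against 0.455% of all genes called higher, with a median log2 fold of 1.07 against -0.08 for all genes. Tle4 was at 214, 112, 98.7 and 162 CPM in excitatory members and 38.4, 52.1, 32.8 and 24.2 CPM in other excitatory nuclei (log2 fold 2.22, SE 0.36, adjusted p = 1.6e-06). Pcp4 was at 315, 358, 197 and 81.2 CPM against 76.1, 89.3, 98.4 and 91.8 CPM (log2 fold 1.73, SE 0.28, adjusted p = 9.9e-07), with number 3 below its counterpart. Garnl3 was at 1166, 403, 617 and 433 CPM against 364, 288, 247 and 279.5 CPM (log2 fold 1.21, SE 0.18, adjusted p = 2.1e-08). Tbr1, Bcl11b, Nxph3 and Thsd7b completed the 7, with log2 folds of 1.42, 1.31, 3.16 and 2.95. Of the other 5 that passed against all nuclei, Crym, Fezf2 and Grik3 had log2 folds of 0.86, 1.07 and 0.77 and did not pass here (edgeR adjusted p = 0.46, 0.22 and 0.82), and Zfpm2 and Sla missed the count filter. Without number 0 the call of Garnl3 was lost at a log2 fold of 0.58, along with those of Tle4, Tbr1, Bcl11b and Pcp4 at 1.85, 1.03, 0.94 and 1.35. Without number 3, Tbr1, Bcl11b and Nxph3 lost it at 1.44, 1.26 and 2.71.

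Among genes of at least 20 CPM that were higher in all 4 title numbers, the 12 with the largest folds upward among excitatory nuclei were Nxph3, Cpa6, Thsd7b, Olfml2b, Col23a1, Podn, Tle4, Rai14, Slc35f1, Diras2, Tbr1 and Nrip3. Col23a1, a transmembrane collagen, was at 60.3, 22.4, 24.7 and 108 CPM against 9.08 to 13.0 CPM (log2 fold 2.60, SE 0.62, adjusted p = 0.0057). Podn, the matrix proteoglycan podocan, was at 87.1, 22.4, 49.4 and 81.2 CPM against 11.8 to 19.1 CPM (log2 fold 2.56, SE 0.57, adjusted p = 0.0026). They rest on 15 and 19 member UMIs, and the groups did not overlap for either. Rai14, an actin-binding ankyrin repeat protein, was at 107, 67.2, 49.4 and 108 CPM against 18.2 to 25.1 CPM (log2 fold 2.07, SE 0.49, adjusted p = 0.0057). Slc35f1, a solute carrier, was at 101, 67.2, 123 and 325 CPM against 24.0 to 54.5 CPM, highest in number 3 (log2 fold 1.93, SE 0.41, adjusted p = 0.0011). Diras2, a small Ras-family GTPase, was at 141, 134, 74.0 and 271 CPM against 44.4 to 63.8 CPM (log2 fold 1.63, SE 0.36, adjusted p = 0.0026). Nrip3 was at 87.1, 381, 98.7 and 244 CPM against 55.9 to 91.3 CPM (log2 fold 1.41, SE 0.33, adjusted p = 0.005), and its groups overlapped. All 12 had to pass and be higher in all 4 numbers, so a lack of overlap is partly set by that choice. Of the 12, 11 passed without number 1, where Nrip3 lost its call at 1.02. Without number 0, 10 were tested and 2 passed, Nxph3 at 3.80 and Nrip3 at 1.95, while the 8 others had log2 folds of 3.60 (Olfml2b), 2.47 (Col23a1), 1.99 (Podn), 1.85 (Tle4), 2.07 (Rai14), 1.86 (Slc35f1), 2.04 (Diras2) and 1.03 (Tbr1). Without number 3, 4 passed, Cpa6, Thsd7b, Podn and Tle4, and the other 8 kept log2 folds of 1.30 to 2.71. DESeq2 called Nxph3 and Tle4 of the 12.

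Of 19 tested upper layer genes 0 were higher and 7 lower among excitatory nuclei, against 0.665% of all genes called lower, with a median log2 fold of -1.23. Rasgrf2, Calb1, Lamp5 and Cux2 had log2 folds of -1.64, -2.86, -1.72 and -1.78, and Mef2c, Stard8 and Enpp2 passed as well. None of the 7 passed without number 0, where Rasgrf2, Calb1, Lamp5, Cux2, Mef2c and Enpp2 had log2 folds of -1.35, -1.84, -2.16, -1.62, -0.74 and -1.03 and Stard8 had no member UMI. Mef2c, Stard8 and Enpp2 also did not pass without number 1, at -0.61, -2.82 and -1.02, or without number 3, at -0.66, -2.87 and -1.02. DESeq2 called none of the 7. The genes with the largest decreases were again near 0 in members. Fam19a1, Cdh12, a cadherin, and Ccdc93, of the endosomal recycling machinery, had no UMI in 270729 UMIs of excitatory members and 427, 262 and 219 in other excitatory nuclei. They were at least 6.52-, 4.00- and 3.34-fold lower. Tle1, a corepressor of the same family as Tle4, had 3 UMIs in members against 319 and was lower by 4.87-fold, with a counting interval of 1.65 to 23.8. Its relative Tle4 was higher in the same nuclei. Pdzrn3, a ubiquitin ligase, and Cdh7, a second cadherin, had 3 UMIs each and were lower by 6.34-fold, with a counting interval of 2.15 to 30.9, and by 6.69-fold, with a counting interval of 2.27 to 32.6. Elmo2, which acts on Rac through DOCK proteins, was at 40.2, 22.4, 98.7 and 0 CPM against 156, 114, 125 and 109 CPM (log2 fold -2.22, SE 0.49, adjusted p = 0.0022), and Stard8, Rreb1 and Fhl1 had log2 folds of -3.03, -2.26 and -2.06. None of the 12 passed without number 0, and 3, Fam19a1, Calb1 and Elmo2, passed without number 1 and again without number 3. DESeq2 called none of the 12.

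A second class of deep nuclei was taken for comparison: 151 nuclei that passed the excitatory gate, held a UMI of Rxfp1 or Oprk1, which the rule excluded, and none of Otof, Scube1 or Scn7a (Rxfp1/Oprk1 nuclei). Between these and the excitatory members, in numbers 0, 1 and 3, 1501 genes could be tested and 3 (0.2%) passed. Of the 28 deep layer genes 3 could be tested and 1 passed, Garnl3. Of the 22 upper layer genes 3 could be tested and 0 passed. Most genes of both lists thus have no test against this class. Garnl3 was at 1121, 426, 617 and 464 CPM in excitatory members and 419.6, 285, 234 and 298 CPM in Rxfp1/Oprk1 nuclei (log2 fold 1.14, SE 0.19, adjusted p = 7.6e-04). Camk2n1 was at 226, 237, 642 and 348 CPM against 514, 652, 678 and 674 CPM (log2 fold -1.19, SE 0.22, adjusted p = 0.0016), and Sorbs2, an adaptor of the actin cytoskeleton, at 812, 734, 938 and 551 CPM against 1396, 1087, 1134 and 1113 CPM (log2 fold -0.77, SE 0.14, adjusted p = 0.0016). Garnl3 and Sorbs2 did not overlap between the classes. Without number 0, none passed, and Garnl3, Camk2n1 and Sorbs2 had log2 folds of 0.60, -1.20 and -0.76. Camk2n1 also lost its call without number 1, at -1.10. Without number 3, 11 passed over more genes tested. The count was 0 by DESeq2, with 14 at an unadjusted p under 0.05, 0 without the block and 33 by limma-voom with a weight per group. Some Rxfp1/Oprk1 nuclei held a gate gene UMI themselves: in numbers 0, 1 and 3, 25 of 40, 31 of 36 and 28 of 36 held none. Against nuclei with none, more genes passed, the 3 among them, as counted in the closing section. The low count of calls does not show that the classes are alike.

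Lists of signalling and connectivity genes each held few calls, in both directions for most. The list genes named in this paragraph and the next are those that passed against all other cortical nuclei, named after their values were seen. Of 16 tested AMPA, NMDA and kainate receptor genes 2 were higher (Gria2 and Grik3) and 2 lower (Gria4 and Grik2), against 0.95% and 1.3% of all genes. Gria2, the subunit that makes AMPA receptors calcium-impermeable, was at 3321, 3629, 3252 and 2954 CPM against 2631, 2809, 2720.1 and 2672 CPM, a small shift without overlap (log2 fold 0.28, SE 0.08, adjusted p = 0.033). After thinning every nucleus to 500 UMIs its log2 fold was -0.14, of the opposite sign. Gria4 was at 315, 167, 170.3 and 157 CPM against 371, 357, 326 and 347 CPM (log2 fold -0.67, SE 0.18, adjusted p = 0.012), and Grik2 at 81.6, 167, 102 and 47.1 CPM against 165, 214, 177 and 175 CPM (log2 fold -0.90, SE 0.25, adjusted p = 0.018). Gria2 lost its call without numbers 0 (0.28) and 1 (0.24), Gria4 without numbers 1 (-0.59) and 3 (-0.57) and Grik2 without numbers 0 (-0.80) and 3 (-0.75). None of 7 metabotropic glutamate receptor genes and none of 13 GABA receptor genes passed in edgeR or DESeq2, and 1 of each list had an unadjusted p under 0.05. Of 27 potassium channel genes Kcna1, a Kv1 subunit (419.5, 349, 443 and 518 CPM against 233 to 244 CPM, log2 fold 0.84, SE 0.16, adjusted p = 2.9e-05), and Kcnip3, a Kv4 partner (log2 fold 0.96), were higher. Kcna1 passed with any title number left out, and Kcnip3 lost its call without numbers 0 (0.69), 1 (0.99) and 3 (1.01). Kcnq5, an M-current subunit, was lower (23.3, 55.8, 51.1 and 31.4 CPM against 81.7 to 94.5 CPM, log2 fold -1.33, SE 0.38, adjusted p = 0.027). Its call was lost without numbers 0 (-0.92) and 3 (-1.28). Of 26 sodium, calcium and HCN channel genes none was higher, and Cacna1b, the pore of N-type calcium channels, and Cacng3, an AMPA receptor auxiliary subunit, were lower with log2 folds of -0.80 and -1.02. Cacna1b lost its call without numbers 0 (-0.78) and 1 (-0.73), and Cacng3 without numbers 0 (-0.80), 1 (-0.83) and 3 (-1.01). Of 26 tested receptor genes for peptides, monoamines and acetylcholine, the serotonin receptor Htr1f was higher at 87.4, 139.6, 102 and 126 CPM against 45.1, 58.9, 47.4 and 45.9 CPM (log2 fold 1.15, SE 0.31, adjusted p = 0.015). The cannabinoid receptor Cnr1 was lower at 52.4, 14.0, 51.1 and 15.7 CPM against 132, 186, 160.5 and 166 CPM (log2 fold -2.01, SE 0.33, adjusted p = 5.8e-07), as was the PACAP receptor Adcyap1r1 (log2 fold -1.92). Cnr1 passed with any title number left out, Htr1f lost its call without numbers 0 (1.29), 1 (1.11) and 3 (1.08), and Adcyap1r1 without number 1 (-1.70) and number 0, where 1 member UMI of it was left. Hcrtr2, an orexin receptor, was at 14.0 to 23.3 CPM against 2.19 to 3.60 CPM from 7 UMIs, above in 4 of 4 numbers, and did not pass (adjusted p = 0.12, edgeR).

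The counts in this paragraph stand against 0.95% of all genes called higher and 1.3% called lower. No list was tested as a set, and 1 or 2 calls in a list are too few to describe it. Of 43 tested axon guidance genes 5 were higher and 2 lower, and the median log2 fold of the list was -0.35, below 0, although more of its calls were upward. Sema5a, Sema5b and Sema4a, semaphorins, the semaphorin and VEGF receptor Nrp1 and the ephrin receptor Ephb1 were higher, with log2 folds of 1.86, 1.80, 0.83, 1.04 and 1.73. Sema5a was at 105, 55.8, 17.0 and 47.1 CPM against 12.3 to 23.8 CPM and Nrp1 at 198, 126, 119 and 126 CPM against 51.6 to 97.0 CPM. The semaphorin receptor Plxnd1 and the netrin receptor Unc5d were lower, at -1.55 and -1.68. No axon guidance gene of these 7 passed without number 0, where Sema5a, Sema5b, Sema4a, Nrp1, Ephb1, Plxnd1 and Unc5d had log2 folds of 1.51, 1.63, 1.03, 1.08, 1.45, -1.18 and -1.81. Sema5a and Nrp1 passed without each other number. Sema5b, Sema4a, Ephb1, Plxnd1 and Unc5d each lost their call without at least 1 more, at log2 folds of 1.63 to 1.87, 0.61 to 1.03, 1.45 to 1.90, -2.41 to -1.18 and -1.82 to -1.36 over the 4 sets. Of 48 synaptic adhesion genes Lrrtm2 and Sdk2, an immunoglobulin adhesion molecule (134, 126, 170.3 and 173 CPM against 46.0 to 68.3 CPM, log2 fold 1.43, SE 0.28, adjusted p = 6.97e-05), were higher and Ntm, neurotrimin, was lower (log2 fold -0.68). Of 22 cadherins and protocadherins Pcdh9 was higher (0.74), and Cdh7 (-2.43) and Cdh10 (-1.20) were lower. Of 19 heparan sulfate genes Ndst1 was higher (1.35), and Ndst3 (-0.98), its paralogous sulfotransferase, and the glypican Gpc6 were lower, Gpc6 by 4.87-fold, with a counting interval of 1.66 to 23.7 from 3 member UMIs, all in number 0. None of 13 tested synaptotagmins other than the gate gene Syt6 passed in edgeR or DESeq2, while 8 had an unadjusted p under 0.05 in edgeR, against 1157 of all 11054 genes. Of 18 immediate early genes Arc passed as higher (216, 293, 51.1 and 251 CPM against 99.6 to 144 CPM, log2 fold 0.81), with number 2 below the rest. With any title number left out Lrrtm2, Sdk2 and Cdh7 passed. The call was lost by Ntm without numbers 0 (-0.63) and 1 (-0.52), Pcdh9 without numbers 0 (0.64) and 1 (0.71), Cdh10 without numbers 0 (-1.21) and 1 (-1.18), Ndst3 without numbers 1 (-0.89) and 3 (-0.79), Arc without numbers 0 (0.64), 1 (0.73) and 3 (0.77), and by Ndst1 and Gpc6 without each number, Ndst1 at 1.17 to 1.43.

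Among excitatory nuclei, with 0.455% and 0.665% of all genes called higher and lower, single members of these lists passed as well. Kcna1 was at 429, 336, 272 and 460.1 CPM in excitatory members against 214 to 247 CPM (log2 fold 0.82, SE 0.21, adjusted p = 0.016), Lrrtm2 had a log2 fold of 1.03 and Sema5a of 2.70. Cnr1 was at 53.6, 0, 49.4 and 27.1 CPM against 105 to 152 CPM (log2 fold -1.67, SE 0.46, adjusted p = 0.03). Kcnq5, Cacng3, Plxnd1 and Ntm were lower at -1.99, -1.55, -2.55 and -1.02. Plxnd1 had no UMI in numbers 1 and 3, and in number 2, outside the fit, it was at 123 CPM, above its counterpart. None of these 8 passed without number 0, where Kcna1, Lrrtm2, Sema5a, Cnr1, Kcnq5, Cacng3 and Ntm had log2 folds of 0.85, 1.19, 2.66, -3.56, -1.98, -2.09 and -1.22. Kcna1, Lrrtm2, Cnr1, Kcnq5 and Cacng3 also lost their call without number 1, at 0.86, 0.93, -1.27, -2.30 and -1.50, and without number 3, at 0.77, 1.00, -1.51, -1.76 and -1.42. Ntm lost it without number 1, at -0.91.

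**Figure D5:**
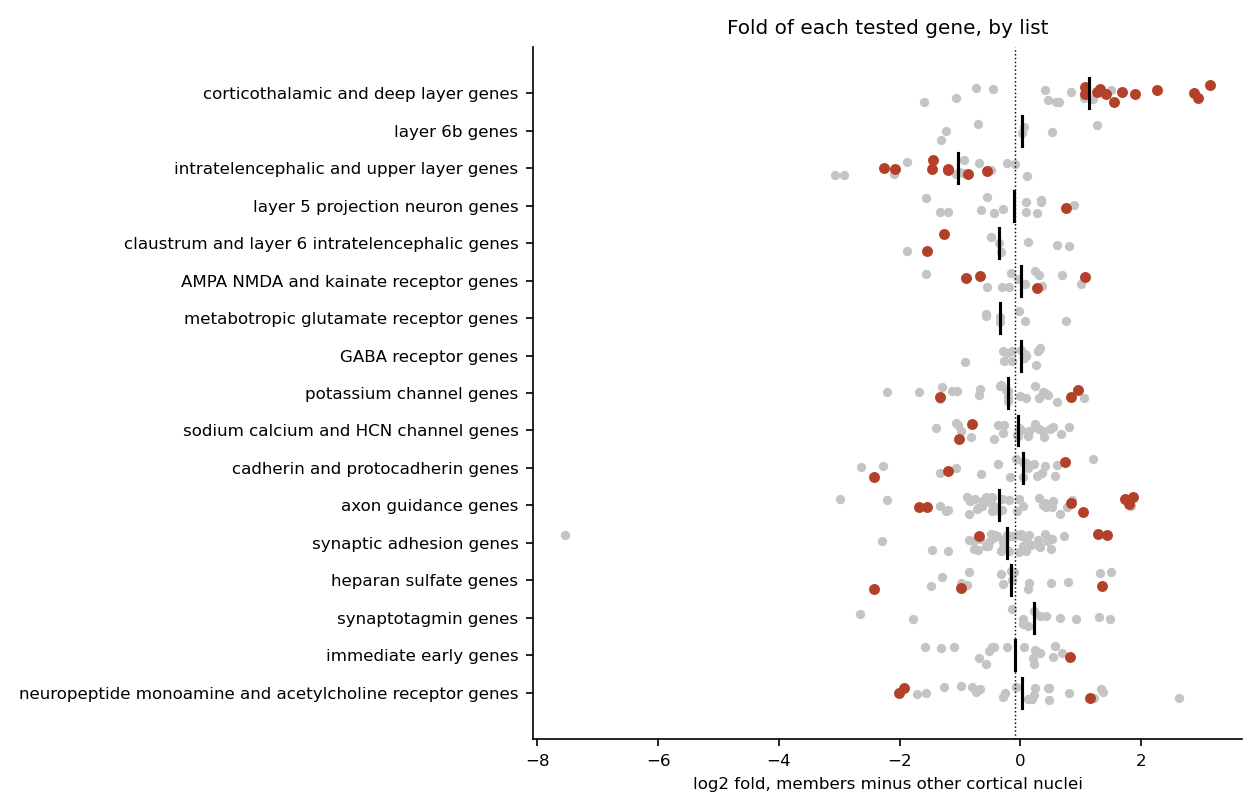
The log2 fold of each tested gene, members minus other cortical nuclei, by gene list; red points passed edgeR's test at an adjusted p under 0.05, grey points did not, black bars are list medians and the dotted line is the median of all genes, -0.08. The corticothalamic and deep layer list lies to the right, with a median of 1.14, the intratelencephalic and upper layer list to the left, with -1.04, and the other medians lie between -0.36 and 0.22. The synaptic adhesion point farthest to the left, Il1rapl2, had no member UMI, so that its fitted fold is not a measured size.

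Splits among the members were described without a test, since their parts held few nuclei. Members with a Foxp2 UMI numbered 54 (22, 10, 8 and 14 by title number), and 3 of the 4 numbers fell under the minimum of 20 nuclei. In plain CPM with counting intervals, Tle4 was at 229 (148 to 338) with Foxp2 and 118 (79.4 to 168) without it, and Garnl3 at 851 (687 to 1043) and 796 (690.3 to 913). Calb1 was at 0 (0 to 33.8) with Foxp2 and 31.4 (13.5 to 61.8) without, and these intervals overlap. The 73 members that did not pass the excitatory gate held Slc17a7, a gene of that gate, at 64.1 (23.5 to 139.6), against 369 (301 to 449) in those that did. Their Garnl3 was at 673 (517 to 861) against 861 (754 to 979), and their Pcp4 at 267 (173 to 394) against 273 (215 to 343). Both genes thus stood in members without the gate above their levels of 228 (214 to 243) and 77.3 (69.0 to 86.4) in nuclei with no gate gene. The median depth was 1073 UMIs without and 1857 with the excitatory gate.

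Markers of other cells were compared over the same sums, in plain CPM. The calls below stand against 0.95% of all genes called higher and 1.3% called lower in members. The 6 pan-excitatory markers summed to 1714 to 1967 CPM in members and 1720.3 to 1955 CPM in other cortical nuclei, and none passed in edgeR or DESeq2 (2 at an unadjusted p under 0.05). The other nuclei include inhibitory neurons and glia, and 73 of the 192 members did not pass the excitatory gate. That every member is an excitatory neuron of layer 6 is thus not shown. Astrocyte markers summed to 897 to 1713 against 946 to 1382 CPM, and 1 of 9 tested, Gja1, was lower. The next 3 lists held no call in edgeR or DESeq2 and no unadjusted p under 0.05 in edgeR. Oligodendrocyte markers summed to 473 to 885 against 625 to 759 CPM with 0 of 9 called, oligodendrocyte precursor markers to 28.5 to 186 against 87.4 to 102 CPM with 0 of 4 called, and microglia markers to 22.5 to 239.6 against 85.4 to 111 CPM with 0 of 1 called. P2ry12, Csf1r and Tmem119, of microglia, and C1ql1, of oligodendrocyte precursors, had no UMI in members. Endothelial markers were at 36.9 to 839.7 against 589.6 to 1204 CPM and 3 of 7 tested were lower, with number 0 the highest on both sides. Interneuron markers other than Gad1 and Gad2 summed to 107 to 327 against 591 to 660.2 CPM, 8 of 11 were lower, and the rule excluded Gad1 and Gad2 nuclei. Meningeal fibroblast markers, without the gate genes, summed to 313 to 575 against 169.96 to 211 CPM, above in all 4 numbers, with 1 of 5 tested called, Col6a1, as higher. Of these 5 genes, 4 had a log2 fold above 0 and 2 had an unadjusted p under 0.05 in edgeR. Col6a1 alone held 135 member UMIs, while Col1a1, Col1a2, Col3a1, Dcn, Lum and Igf2 held 5, 6, 2, 12, 2 and 3. In excitatory members Col1a1, Col3a1, Dcn, Lum and Igf2 had 0 UMIs. The part of vascular, fibroblast and interneuron RNA in the results above was not tested. Mitochondrial transcripts were 0.0295% to 0.0427% of member UMIs and 0.0457% to 0.0519% of the rest.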

How the data were processed

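DroNc-seq was run on nuclei in 10 libraries of archived frozen mouse brain, 5 of hippocampus and 5 of cortex. The authors deposited 1 table of raw UMI counts per gene and nucleus, and the submitters' processing notes name STAR, Seurat and mm10. The UMI collapsing, the counting of introns and the choice of nuclei are not given in the sources used here. Intronic reads and the loss of cytoplasmic RNA make nuclear counts differ from those of whole cells. The table has 23589 genes. A further 1689 columns match no sample label and were not used.

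Counts were summed per title number, with libraries 0a and 0b joined, over members and over each comparison set. A number entered a fit if both sides held at least 20 nuclei. edgeR 4.0.16 in R 4.3.3 (filterByExpr, TMM, quasi-likelihood test) had the title number as a block, because both sides are nuclei of the same libraries, and used Benjamini-Hochberg adjustment over all genes tested at 0.05. DESeq2 1.42.0, limma 3.58.1 and the settings in the closing section were alternatives. Doublet scores came from scrublet in scanpy 1.11.5, and no nucleus was removed for its score in the values reported. The edgeR fit was also run on simulated counts with known changes, which do not model the choice of members by the rule. Its outcome is not used as support here. Exact intervals cover counting error only.

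Genes named by fold had to pass, reach 20 CPM on the higher side, go the same way in all 4 numbers (number 2 by its plain CPM where it was not in the fit) and be no gate gene, unnamed transcript or mitochondrial gene. The largest folds were taken, 6 per direction against all cortical nuclei, 12 against excitatory nuclei and 8 against Rxfp1/Oprk1 nuclei, where 3 passed. From each list the genes with the smallest p were added. Some genes that the rule selects are not reported here. Members and lists were chosen with earlier results of these data known.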

Additional observations from a re-analysis of the deposited data

Results flagged for a closer look

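Title number 0 stood far from the other 3 in depth: the median UMIs per nucleus were 2486 in its members, against 1148 to 1290, and 2515.5 in its other cortical nuclei, against 1105 to 1308. Among 81 groups of 4 values, 13 had a sample this far from the rest by Dixon's criterion. For continuous normal values chance gives about 1 in 20. Where 3 numbers held no UMI and 1 did, as for Gpc6, Reln, Dlx6os1, Fam19a1 and Slc32a1, the flag is automatic. That rate does not apply to them, so 13 of 81 is not read as an excess.

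In members of number 0, Gria4 was at 315 CPM against 157 to 170.3 in the other numbers, Flt1 at 239 CPM against 34.1 to 62.8, and Nrp1 at 198 CPM against 119 to 126. Gpc6 was at 17.5 CPM and Reln at 5.83 CPM there, and both had no member UMI in the other numbers. In number 1, Nefm was at 502 CPM against 262 to 272, and Cdh7 had no UMI, against 15.7 to 17.5 CPM elsewhere. Number 1 also held the sole member UMIs of Dlx6os1, at 27.9 CPM, Fam19a1, at 13.96 CPM, and Slc32a1, at 13.96 CPM. In number 3, Sla was at 62.8 CPM against 14.0 to 17.5 CPM. Several of these values rest on 1 to 4 UMIs in a title number. No cause was tested.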

How the results depend on the processing

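Counts of called genes moved with the method more than the directions did: all 249 genes called against other cortical nuclei, all 101 called against other excitatory nuclei and all 3 called against Rxfp1/Oprk1 nuclei kept their direction in DESeq2, in limma-voom with a weight per group and without the replicate block. In that order of comparisons, the count was 59, 14 and 0 without the replicate block on the title number, 69, 4 and 0 with DESeq2, and 0, 0 and 33 with limma-voom. At an unadjusted p under 0.05, limma-voom had 1253 and 771 genes in the first 2 comparisons, DESeq2 had 248 in the second and 14 in the third, and the fit without the block had 85 in the third. Thinning to 500 UMIs left 38, 5 and 0 calls, over fewer genes tested. Leaving out 1 title number gave 88 to 230 calls, 12 to 50.0 and 0 to 11. Requiring the gate without Col12a1 and Col5a1 gave 117 in the first comparison, and members passing the excitatory gate 79. In the third, no low count filter gave 6, comparison nuclei with no gate gene UMI 19, leaving out the top doublet scores 10 and a minimum of 15 nuclei, which lets number 2 in, 13. The cause of these differences was not tested. The limma-voom fit, the gate without collagens, the excitatory members and the minimum of 15 nuclei were chosen after seeing the data.

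Of genes called against other cortical nuclei, 218 of 221 with a value kept their direction after thinning, 247 of 248 with the gate without collagens and 248 of 249 with excitatory members. Among named genes the log2 fold reversed for Gria2 after thinning (-0.14, all nuclei) and for Arc after thinning (-0.26, excitatory nuclei). Among excitatory nuclei it also reversed for Kcnmb4, at 0.0254 without the replicate block, at 0.0048 against nuclei with no gate gene UMI and at -1.02 to 0.0615 with 1 number left out, highest without number 3. Syt1 ranged from -0.00799, without number 0, to 0.28. Without a low count filter the median fold of all genes was -0.52, and after thinning -0.25, against -0.08. The comparison of members with and without Foxp2 and the gate of at least 3 genes were not run, since 1 title number reached 20 nuclei a side. The split by Syt6, its alternative, had 2 such numbers and was left out with it. With 364299 member UMIs, a gene at 8.23 CPM gives 3 counts, which limits what could be seen of rarer transcripts.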

Other observations

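The same rule was applied to the hippocampal nuclei, which belong in no comparison above. It took in 62 of 5658, or 1.10%, 1.04%, 1.32% and 0.943% by title number 0 to 3, a lower share than the 2.25% to 4.38% in cortex, without overlap. Hippocampal nuclei that passed were deep, with medians of 1552 to 2666 UMIs by title number against 779.5 to 1160 in those that did not. In plain CPM over all hippocampal libraries, Garnl3 was at 706 in nuclei that passed and 133 in those that did not, Col6a1 at 257 and 34.8, Tle4 at 125 and 46.5, Nxph3 at 59.3 and 5.87, Fezf2 at 79.1 and 27.3 and Tbr1 at 46.2 and 18.6. Camk2n1 was at 158 and 358. Zbtb20, a transcription factor of hippocampal pyramidal and granule neurons, was at 1055 and 1985, and Prox1, which marks dentate granule cells, at 79.1 and 129. These are descriptions of pooled counts with no test.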
